A study of Mus musculus with 4 samples.

Results

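The αLPs (lymphoid progenitors of bone marrow, Lin−CD127+FLT3−LPAM-1+) that carried transcripts of both Il18r1 and Il1rl1 were examined here in single-cell RNA sequencing data. They were selected on 5 measured values per cell: Id2, Il18r1 and Il1rl1 at 1 or more, and Mki67 and Cd3e below 1, on the scale of ln(1 + reads per 10000 reads of the cell), on which 1 stands for 1.72 reads per 10000. Within the hashtag, read number and mitochondrial limits, 279 of the 8663 deposited cell columns met them, 241 WT and 38 G3SEKO cells. The cells with only one of both receptors served for comparison: 492 WT cells with Il18r1 only and 3692 WT cells with Il1rl1 only. As Il18r1, Il1rl1, Id2, Mki67 and Cd3e chose the cells, their levels describe the choice and were not tested.

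WT and G3SEKO mice of the C57BL/6 strain, 6 to 12 weeks old and without treatment, were the source of the bone marrow. G3SEKO mice lack the tandem super-enhancers downstream of Gata3, which were removed from the germ line with CRISPR-Cas9, so all cells of the animal carry the deletion. They retain the Gata3 gene itself. In each of 2 experiments, αLPs of each genotype were marked with separate hashtag antibodies to MHC class I, combined and sequenced as 1 library by TAS-Seq. Several mice were pooled for each genotype (10 WT and 8 G3SEKO in experiment 1, 7 WT and 9 G3SEKO in experiment 2), so that a genotype in an experiment is 1 sample. For experiment 2 the sample labels list both hashtags under WT; here the hashtag A0303 was read as G3SEKO, and every G3SEKO value of that experiment rests on this reading.

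Il18r1 encodes the ligand-binding chain of the receptor for IL-18, and Il1rl1 encodes ST2, the receptor for IL-33. Both belong to the IL-1 receptor family and signal through MyD88 to NF-κB. The common progenitor of innate lymphoid cells (ILCP) bears the IL-18 receptor, the transcription factors PLZF (Zbtb16), TOX and TCF-1 (Tcf7), and PD-1 (Pdcd1). Precursors committed to group 2 innate lymphoid cells (ILC2s) take up ICOS, IL-17RB and BCL11B, and most bone marrow ILC2s bear ST2 and CD25 (Il2ra), and a part of them bear the IL-18 receptor as well. GATA3 is the transcription factor that ILC2s depend on. A cell with both receptors therefore carries a transcript known from the earlier stage and one known from the later stage.

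The genes of both receptors lie next to each other on mouse chromosome 1 (GRCm38, GENCODE vM21, plus strand). Il1rl1 spans chr1:40429570-40465415 and Il18r1 spans chr1:40465552-40500854, with 136 bases between them, and Il18rap, the second chain of the IL-18 receptor, begins 14507 bases after the end of Il18r1. Their promoters are shown because reads of both genes defined the cells and because GATA3 is the factor whose enhancers were deleted. The RefSeq promoter table for GRCm38.p6 held 3 of the 4 genes Il1rl1, Il18r1, Icos and Gata3. Capitals mark the motif AGATAA and its variants ending in G (AGATAG), beginning with T (TGATAA) or both (TGATAG), on either strand, of which none overlaps another here. The first sequence is the distal start of Il1rl1 (chr1:40429320-40429569, 250 bases before the start), the second its other start (chr1:40439379-40439628), and the last the stretch of 133 bases before Il18r1 (chr1:40465419-40465551), all on the plus strand.
Il1rl1, distal start: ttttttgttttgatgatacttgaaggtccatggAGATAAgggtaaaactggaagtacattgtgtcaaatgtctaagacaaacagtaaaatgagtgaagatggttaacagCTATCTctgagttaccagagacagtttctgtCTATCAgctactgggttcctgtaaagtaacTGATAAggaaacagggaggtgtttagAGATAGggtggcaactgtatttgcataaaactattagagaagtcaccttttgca
Il1rl1, other start: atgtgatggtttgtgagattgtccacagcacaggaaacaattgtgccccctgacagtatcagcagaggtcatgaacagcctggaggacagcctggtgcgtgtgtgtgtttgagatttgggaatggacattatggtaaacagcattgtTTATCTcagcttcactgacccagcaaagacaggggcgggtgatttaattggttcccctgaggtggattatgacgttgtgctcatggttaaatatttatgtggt
Il18r1: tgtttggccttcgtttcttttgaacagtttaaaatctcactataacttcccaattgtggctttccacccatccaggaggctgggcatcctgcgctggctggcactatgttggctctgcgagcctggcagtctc
The distal Il1rl1 window held 5 of these motifs, the other Il1rl1 window 1, and the shorter Il18r1 window 0. Of 32817 promoter windows of 250 bases in the table, 26.6% held at least 1 such motif and 0.0427% held at least 5. These are matches of letters, not measured binding.

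Double-positive cells made up 8.81% of the WT cells within the limits in experiment 1 (58 of 658; exact 95% interval 6.76 to 11.2) and 3.63% in experiment 2 (183 of 5045; 3.13 to 4.18), a mean of 6.22% ± 3.67 (SD, n = 2 experiments). Among G3SEKO cells they made up 4.88% (2 of 41; 0.596 to 16.5) and 3.24% (36 of 1112; 2.28 to 4.45), a mean of 4.06% ± 1.16 (SD, n = 2). The intervals cover counting error only. In experiment 2 the intervals of the genotypes overlapped, and in experiment 1 only 2 G3SEKO cells were found. Reading the genotype from the hashtag reads moved no cell between the genotypes, but it took in columns that the authors had named doublet. With these, 21 of them double-positive, the G3SEKO share of experiment 2 was 4.87% (57 of 1171; 3.71 to 6.26), above the 3.63% of WT. The shares were not tested over the 2 pools of each genotype.

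What surrounded these cells differed between the genotypes. In WT marrow, cells with Il1rl1 only were the largest class (54.7% in experiment 1 and 66.0% in experiment 2), and cells with Il18r1 only made up 21.4% and 6.96%. In G3SEKO marrow, cells with Il18r1 only made up 68.3% and 70.1%, whereas cells with Il1rl1 only numbered 0 of 41 (exact upper limit 8.60%) and 13 of 1112. Double-positive cells thus numbered 36 against 13 Il1rl1-only cells in G3SEKO marrow of experiment 2, and 183 against 3332 in WT marrow.

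**Figure D1:**
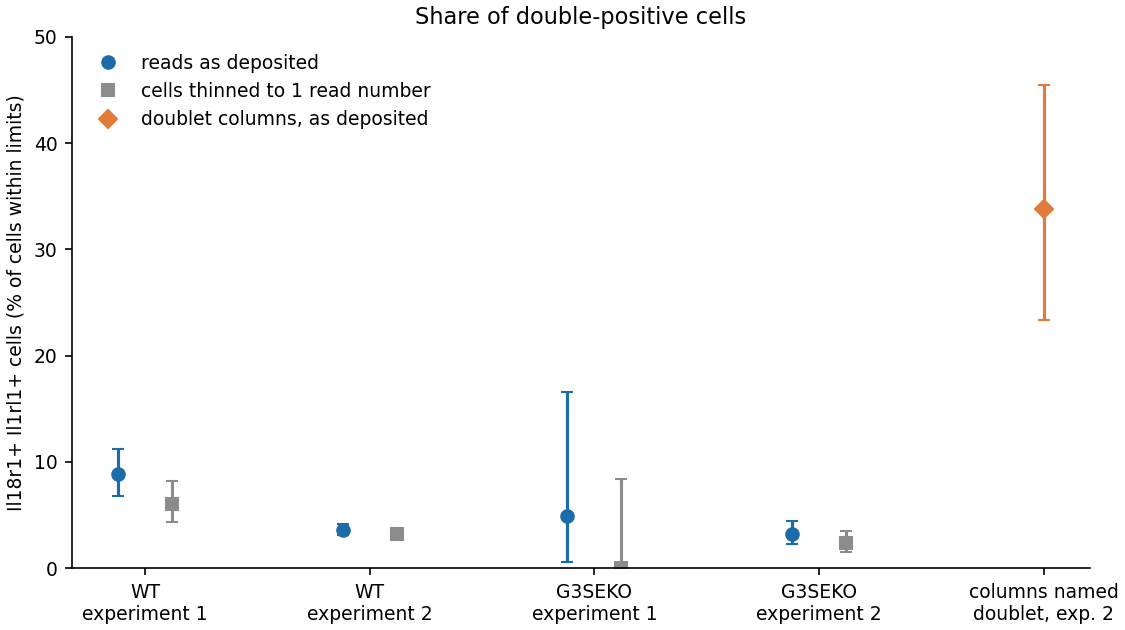
Share of double-positive cells (percent of the cells within the limits, linear axis from 0) by genotype and experiment, with reads as deposited (circles) and with cells thinned to 1 read number (squares), and in the columns named as doublets in experiment 2 (diamond), each with its exact 95% binomial interval for counting error. The 4 shares as deposited lie between 3.24% and 8.81%, and the doublet columns at 33.8%.

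The 3 WT hashtags of experiment 1 gave shares of 8.37% (21 of 251), 7.21% (16 of 222) and 11.4% (21 of 185), so that each carried double-positive cells and their exact intervals overlapped. The 2 G3SEKO cells of that experiment came from different hashtags. After each cell of both experiments was thinned to the read limit of experiment 2, the WT shares were 6.05% and 3.17% and the G3SEKO shares 0% (0 of 42, exact upper limit 8.41%) and 2.38%. With the limit on both receptors at 0.5 the WT shares were 12.2% and 6.20%, and with the limit at 1.5 they were 4.26% and 2.08%.

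Columns that the authors had named as hashtag doublets were not among these cells, and they held the pattern often. In experiment 2, 26 of 77 doublet columns within the limits (33.8%; exact 95% interval 23.4 to 45.4) were double-positive, with a median of 81062 reads against 38179 in WT double-positive cells. By their hashtag reads, 21 of the 26 leaned to the G3SEKO hashtag and the other 5 gave no call. Doublets formed within a hashtag cannot be seen in this way, and the part of such doublets in the double-positive class was not tested. The tenth percentile of the share of a cell's hashtag reads on its own hashtag was 95.5% in G3SEKO and 99.4% in WT double-positive cells of experiment 2. Of the cell barcodes, 11 occurred in both experiments and none of these was double-positive in both.

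In the members, Il18r1 ran from 1.01 to 2.95 with a median of 1.72 in WT cells of experiment 1 and from 1.01 to 3.84 with a median of 1.94 in experiment 2. Il1rl1 ran from 1.12 to 3.29 (median 2.20) and from 1.03 to 3.80 (median 2.53). Values close to the limits were few for Il1rl1 and more frequent for Il18r1: 12 and 33 members lay less than 0.25 above the limit for Il18r1, beside 6 and 29 Il1rl1-only cells at most 0.25 below it, and 5 and 7 members lay less than 0.25 above the limit for Il1rl1, beside 3 and 17 Il18r1-only cells. The lowest values inside were 1.01 for Il18r1 in both experiments and 1.12 and 1.03 for Il1rl1; the highest outside were 0.932 and 0.978 for Il18r1 and 0.979 and 0.994 for Il1rl1. In experiment 2, where cells were shallow, the lowest member had 2 reads of Il18r1, and in experiment 1 the lowest had 50.

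Free RNA can give reads of a receptor in a cell that does not express it. The level of Il1rl1 was therefore read in cells that should lack ST2. Of the WT cells with Eomes or Klrd1, genes of NK cells and ILC1s, 0 of 25 in experiment 1 (exact upper limit 13.7%) and 5 of 32 in experiment 2 (15.6%) reached the Il1rl1 limit. None of these WT cells was double-positive. Of the G3SEKO cells with Eomes or Klrd1, 1 of 7 and 1 of 69 reached the Il1rl1 limit, and both were double-positive.

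The remaining markers of the class were checked in sums of reads over the cells of a class, given as CPM (counts of a gene scaled to 1000000 reads of that sum). Gata3, the gene whose enhancers were deleted, was at 1633 and 1222 CPM in WT double-positive cells of experiments 1 and 2, and at 211 (2 cells) and 323 CPM in G3SEKO ones. Icos, a costimulatory receptor of ILC2s and their precursors, was at 1491 and 1539.7 CPM in WT. Gata3 reached 1 in 96.6% and 85.8% of the WT members and Icos in 74.1% and 78.7%, with 93.1% and 77.6%, and 69.0% and 71.6%, after thinning. In sums of cells, a higher share of cells with a transcript and more transcript per cell cannot be told apart.

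Sums of markers of other lineages were lower in WT double-positive than in Il18r1-only cells for NK cells and ILC1s, LTi cells and ILC3s, and T cells, and for the last 2 of these groups they were above the sums of Il1rl1-only cells. The 12 NK and ILC1 markers summed to 86.5 and 105 CPM, against 1852 and 841 CPM in Il18r1-only cells and 181 and 113 CPM in Il1rl1-only cells. The 9 LTi and ILC3 markers summed to 169 and 146 CPM, against 341 and 576 CPM in Il18r1-only and 95.8 and 90.9 CPM in Il1rl1-only cells. Cells with Eomes, Klrd1 or Ccr6 at 1 or more numbered 0 among the WT members. The 10 T cell markers summed to 1107 and 1065 CPM in double-positive, 2831 and 2189 CPM in Il18r1-only and 661 and 617 CPM in Il1rl1-only cells. In double-positive cells nearly all of it came from Trbc1 and Trbc2, while Cd4 and Cd8a stood at 0.416 CPM or less.

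The Il18r1-only class was less pure. Leaving out cells with markers of other lineages at 1 or more (among them Ccr6, Cxcr5, Tbx21, Eomes, Klrd1 and Klrb1c) left 71 of 141 and 193 of 351 WT Il18r1-only cells, but 48 of 58 and 161 of 183 double-positive ones. The comparison with Il18r1-only cells was therefore repeated without these cells, a choice made after seeing the data.

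WT double-positive cells were first compared with WT Il18r1-only cells, to see which genes differ between cells with and without ST2 transcripts while Il18r1 is present. In double-positive cells the ILCP transcription factors Zbtb16, Tox and Tcf7 and the receptor Pdcd1 were lower, and Gata3 and 10 genes of mature ILC2s were higher. The edgeR quasi-likelihood test on 6 sums (3 WT classes in 2 experiments, experiment as a block, 2 residual degrees of freedom) called 64 genes higher, 0.311% of 20560 tested, and 50 lower, 0.243%, at a Benjamini-Hochberg adjusted p under 0.05. Without cells that carried markers of other lineages, 4 genes were called higher and 4 lower. Of 34 called genes described below that were not used to leave out cells, Lpcat2, Inpp4b and Igfbp7 stayed called, and the other 31 had adjusted p from 0.057 to 0.166 in that repeat, with the sign of all 34 kept.

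Of the 14 ILCP genes, 4 were called lower and none higher, and the median log2 difference was −1.23 against −0.05 over all genes tested. Zbtb16, which encodes PLZF, was at 82.2 and 33.4 CPM in double-positive cells and at 591 and 522 CPM in Il18r1-only cells of experiments 1 and 2 (log2 difference −3.28 ± 0.32 SE, adjusted p = 0.044; −2.90 and 0.101 without the other-lineage cells). In both experiments every double-positive value lay below every Il18r1-only value. Tcf7, which encodes TCF-1, was at 93.1 and 41.4 against 1054 and 1197 CPM (log2 difference −4.04 ± 0.38, adjusted p = 0.042). Pdcd1, the gene of PD-1, was at 17.96 and 21.4 against 256 and 308.8 CPM (−3.76 ± 0.18, adjusted p = 0.025). Tox, an HMG-box factor that early innate lymphoid precursors need, was at 127 and 103 against 487 and 386 CPM (−1.84 ± 0.14, adjusted p = 0.029). These 3 genes had differences of −3.69, −3.41 and −1.69 without the other-lineage cells, with adjusted p = 0.081, 0.064 and 0.081.

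Other ILCP genes were not called. Tox2 stood at 16.5 and 29.5 against 369 in both experiments (adjusted p = 0.080), Atp8b4 at 44.3 and 86.7 against 182 and 202 CPM (adjusted p = 0.080), and Ikzf3, the gene of Aiolos, at 245 and 517 against 328 and 521 CPM (adjusted p = 0.855). The α4 and β7 integrin genes, whose products form the LPAM-1 used to sort these cells, were at similar levels for Itga4 (962 and 977 against 777 and 982 CPM) and at 539.8 and 565 against 267 and 333 CPM for Itgb7 (adjusted p = 0.057).

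**Figure D2:**
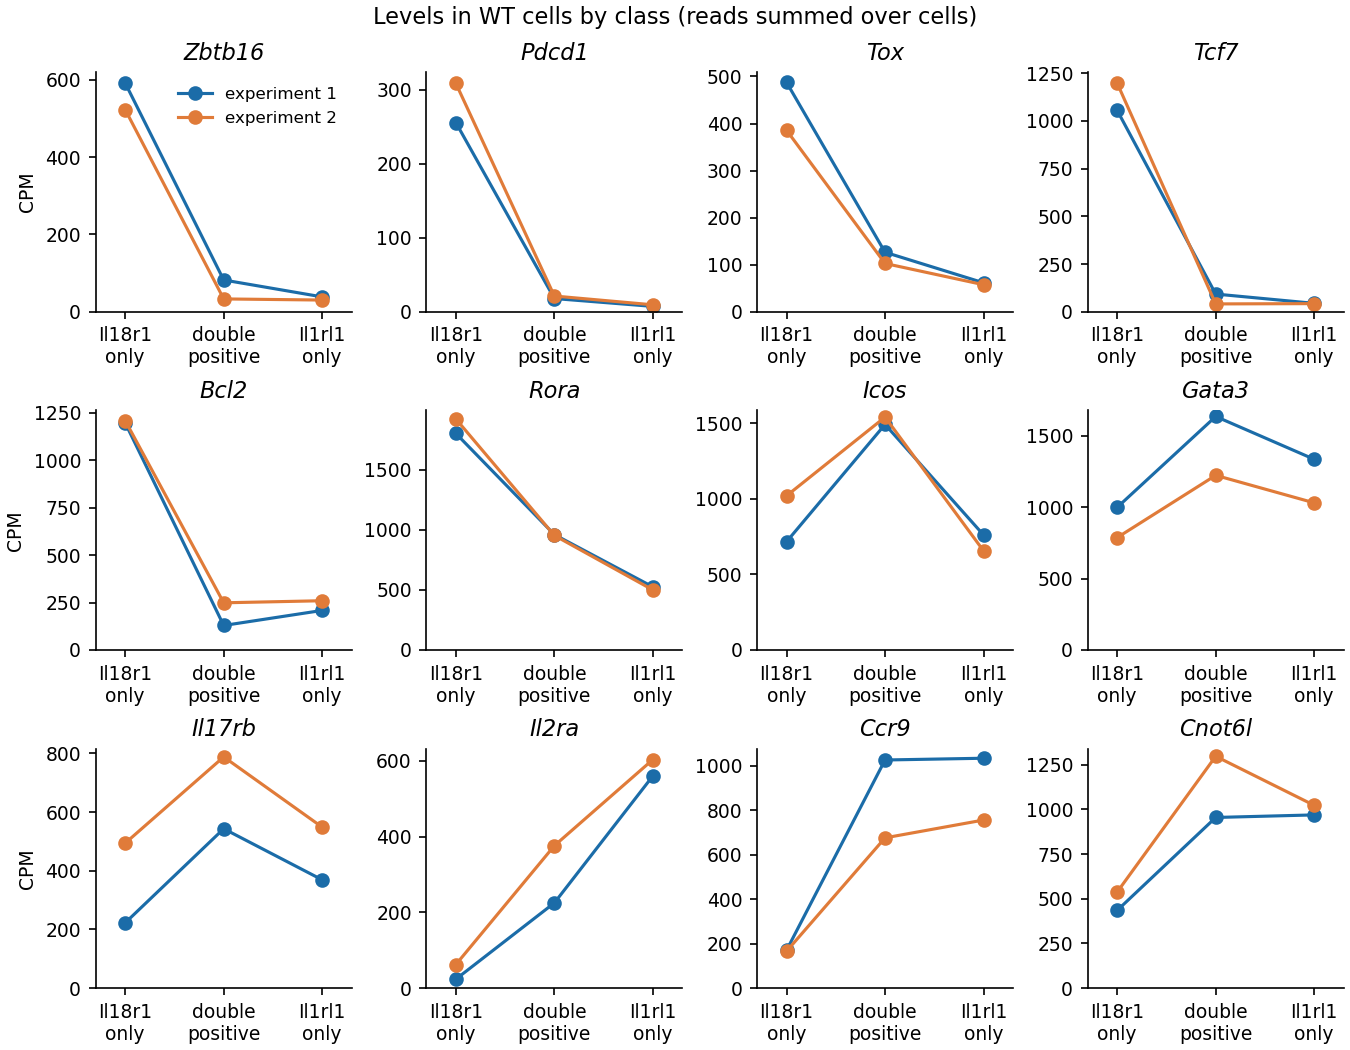
Levels (CPM, linear axes from 0) of 12 genes in WT Il18r1-only, double-positive and Il1rl1-only cells, with 1 line per experiment, 1 sum of reads per point and no error bars. Zbtb16, Tcf7 and Pdcd1 of double-positive cells lie near the Il1rl1-only points, Il2ra lies between both classes at 225 and 376 CPM, and Icos lies above both at 1491 and 1539.7 CPM.

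Of the 10 commitment genes, 1 was called higher and 1 lower, with a median log2 difference of 0.07. Gata3 was at 1633 and 1222 CPM in double-positive and 998 and 786 CPM in Il18r1-only cells (0.76 ± 0.08, adjusted p = 0.045; 0.52 and 0.166 without the other-lineage cells). Rora, which encodes RORα and is required for ILC2s, was the member that fell, at 959.6 and 952 against 1801 and 1921 CPM (−0.88 ± 0.08, adjusted p = 0.042; 0.071 without the other-lineage cells). Bcl11b, a factor that holds ILC2 identity, was at 385 and 306 against 441 and 344 CPM, a difference of −0.10 that was not called. Il17rb, a chain of the IL-25 receptor, was at 543 and 788 against 223 and 494 CPM (1.06 ± 0.18, adjusted p = 0.084), and Gfi1, a transcriptional repressor that ILC2s need, at 83.6 and 77.8 against 24.4 and 26.2 CPM (1.76 ± 0.21, adjusted p = 0.051).

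Of the 28 genes of mature ILC2s, 10 were called higher and none lower, with a median log2 difference of 2.10. The list holds Slc7a8, Cnot6l, Ptpn13, Inpp4b and Zfp36l1, which the paper named from these same libraries as rising toward ILC2s. This count is thus partly fixed by that choice. Il2ra, which encodes the α chain of the IL-2 receptor, was at 225 and 376 CPM in double-positive and 23.8 and 62.4 CPM in Il18r1-only cells (2.97 ± 0.31, adjusted p = 0.045; 2.82 and 0.060 without the other-lineage cells). Ccr9, a homing receptor for the small intestine, was at 1025 and 675 against 170.3 and 166 CPM (2.39 ± 0.16, adjusted p = 0.025; 0.112 without the other-lineage cells). Cnot6l, a deadenylase of the CCR4-NOT complex, was at 954 and 1296 against 435 and 538 CPM (1.29 ± 0.11, adjusted p = 0.033; 0.112 without them). For all 3 genes the classes did not overlap.

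The other called members of the mature list had differences from 0.96 to 3.30. Cysltr1, a receptor for cysteinyl leukotrienes, was at 293 and 468 against 43.6 and 68.4 CPM (log2 difference 2.85). Inpp4b, a phosphoinositide phosphatase, was at 322 and 604 against 45.9 and 113 CPM (2.69), and Lpcat2, an enzyme that makes platelet-activating factor, at 138 and 118 against 11.2 and 17.2 CPM (3.30). Only these last 2 stayed called without the other-lineage cells, at adjusted p = 0.041 and 0.048. Ptpn13 (2.22), Slc7a8 (2.58), Zfp36l1 (0.96) and Cxcr6 (1.40) were the remaining called genes of the list.

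The effector genes of ILC2s were low. Il4 was at 23.0 and 29.6 CPM in double-positive and 0.955 and 1.95 CPM in Il18r1-only cells (adjusted p = 0.054), Il5 at 17.7 and 8.71 against 0.849 and 5.51 CPM, and Il13 at 2.88 and 1.81 against 0.531 and 2.94 CPM. None of these 3 genes was called.

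Among all called genes with the same sign in both experiments, the 8 largest higher differences belonged to Csgalnact1, Adam19, Ffar2, Lpcat2, Kcnq5, Ptgir, Bmp7 and Mctp1. Bmp7, a secreted ligand of the TGF-β superfamily, was at 90.2 and 136 CPM in double-positive and 10.7 and 16.7 CPM in Il18r1-only cells (log2 difference 3.13). Ptgir, the prostacyclin receptor, was at 74.2 and 130.5 against 7.68 and 17.1 CPM (3.17), and Ffar2, a receptor for short-chain fatty acids, at 17.8 and 38.9 against 1.52 and 2.80 CPM (3.76).

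The 8 largest lower differences belonged to Hoxa7, Htra3, Igfbp7, Cxcr5, Hk3, Cym, Tnni1 and Klrk1, which were close to 0 in double-positive cells. Igfbp7 was at 0.238 and 0.319 CPM against 83.2 and 102 CPM and stayed called without the other-lineage cells (adjusted p = 0.041). Cxcr5, a chemokine receptor of LTi cells, was at 0.178 and 1.06 against 141 and 158 CPM (log2 difference −8.29). The activating NK receptor gene Klrk1 was at 0.684 and 0 CPM against 91.7 and 16.0 CPM.

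WT double-positive cells were then compared with WT Il1rl1-only cells, which carry the ST2 gene but not Il18r1 at the limit. The edgeR test called no gene in either direction (0% of 20560), with 1861 genes at an unadjusted p under 0.05, whereas DESeq2 called 282 higher and 320 lower. The same test after thinning of cells called 11 higher and 5 lower. All differences from here on for this comparison are thus values without a call.

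ILCP genes sat a little above their level in Il1rl1-only cells. The median log2 difference of the 14 genes was 0.73 against −0.09 over all genes, and 12 of 14 were positive in both experiments, against 24.7% of all genes tested. Ikzf3 was at 245 and 517 CPM in double-positive and 139.5 and 152 CPM in Il1rl1-only cells (1.27 ± 0.23, adjusted p = 0.449), Tox at 127 and 103 against 61.7 and 57.6 CPM (0.92 ± 0.14, adjusted p = 0.449) and Pdcd1 at 17.96 and 21.4 against 7.37 and 9.50 CPM (1.22 ± 0.17, adjusted p = 0.449). In each of these genes both double-positive values lay above both Il1rl1-only values. Zbtb16 was at 82.2 and 33.4 against 38.6 and 30.4 CPM, also higher within each experiment, though the values overlapped across experiments. Rora was at 959.6 and 952 against 525 and 499 CPM (0.89 ± 0.08, adjusted p = 0.301).

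Mature ILC2 genes sat a little below. Their median log2 difference was −0.30, and 16 of 28 were negative in both experiments, against 29.3% of all genes tested. Il2ra was at 225 and 376 CPM in double-positive and 559.8 and 603 CPM in Il1rl1-only cells (−1.04 ± 0.29, adjusted p = 0.476), Inpp4b at 322 and 604 against 740.3 and 1162 CPM (−1.09 ± 0.16, adjusted p = 0.449) and Rnf128, a ubiquitin ligase gene, at 103 and 253 against 454 and 566 CPM (−1.75 ± 0.51, adjusted p = 0.485). All 3 genes were without overlap between the classes. Ccr9, Cysltr1 and Cnot6l differed by −0.09, 0.05 and 0.15.

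**Figure D3:**
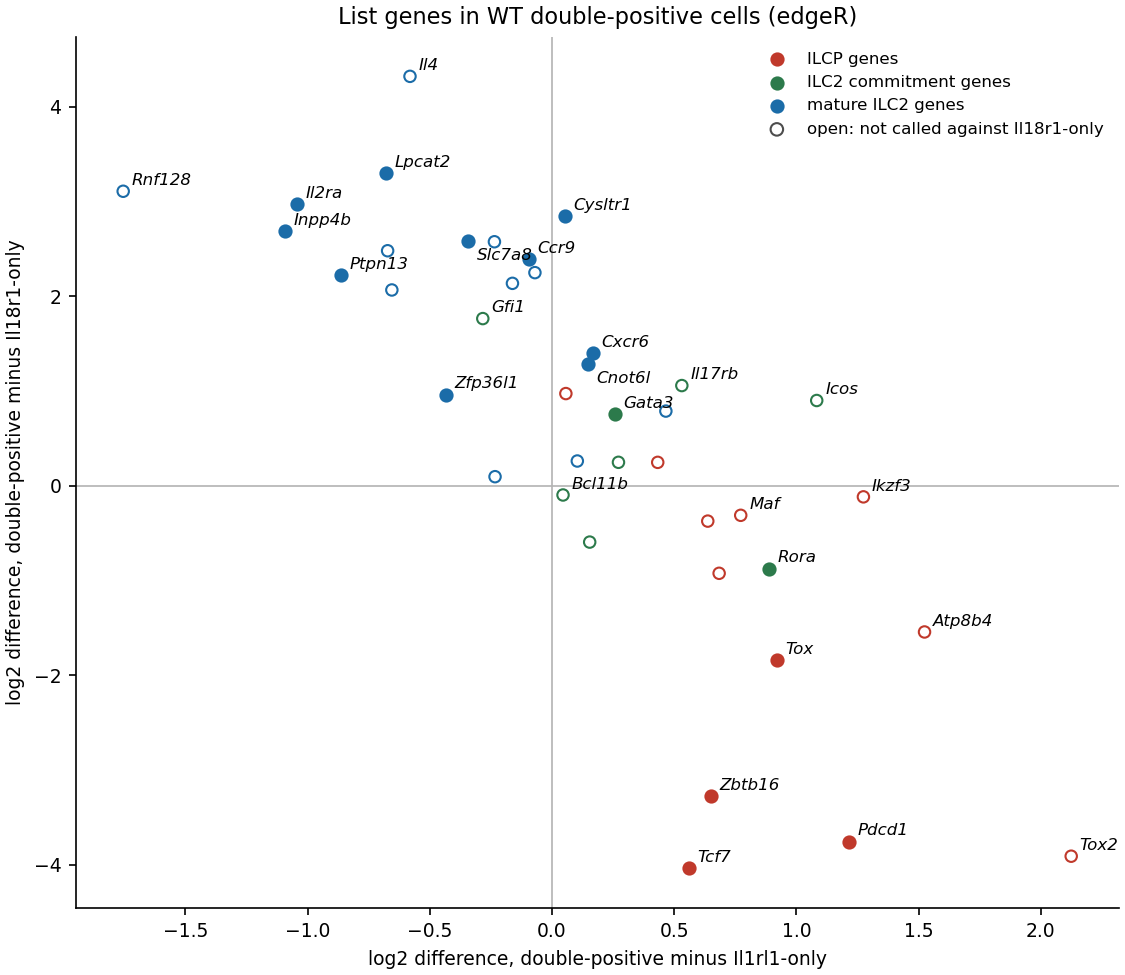
Log2 difference of WT double-positive cells from Il1rl1-only cells (x axis) and from Il18r1-only cells (y axis) for the 40 list genes with at least 20 CPM in at least 1 WT class in both experiments; filled points were called against Il18r1-only cells, none was called against Il1rl1-only cells, and both axes share the double-positive sums. The called ILCP genes lie to the lower right (Tcf7 at −4.04 against Il18r1-only and 0.56 against Il1rl1-only cells), and Il2ra to the upper left (2.97 and −1.04). Cysltr1, Cnot6l and Cxcr6 lie just right of 0 on the x axis, and Icos and Gata3 above 0 on both axes.

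The double-positive class was placed between both others gene by gene. For the genes called between Il1rl1-only and Il18r1-only cells, a position of 0 was set at the Il18r1-only level and 1 at the Il1rl1-only level, on the log scale. Over the 166 genes higher in Il1rl1-only cells the median position of double-positive cells was 0.776 and 0.794 in experiments 1 and 2, and over the 174 lower genes it was 0.802 and 0.709. In both experiments, 125 of the 166 and 126 of the 174 genes stood nearer to the Il1rl1-only level. As all 3 classes share the fit and the genes were chosen from these sums, this is a description and not a test.

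A few genes were above both single-positive classes. Of the 10 commitment genes, Gata3, Icos, Il17rb and Ets1 were higher in double-positive cells than in both other classes in both experiments, against 12.1% of all genes tested. Icos was at 1491 and 1539.7 CPM in double-positive, 716 and 1019 CPM in Il18r1-only and 760.5 and 656 CPM in Il1rl1-only cells. Its log2 differences were 0.90 ± 0.17 (adjusted p = 0.105) and 1.08 ± 0.17 (adjusted p = 0.449). Gata3 was at 1334 and 1029 CPM in Il1rl1-only cells, 0.26 ± 0.08 below double-positive cells (adjusted p = 0.5004). Against the mean of both other classes edgeR called no gene (0% in each direction; 2464 at an unadjusted p under 0.05, and 472 higher and 655 lower with DESeq2). With thinned cells the same test called 24 genes higher and 8 lower, among the higher ones Icos (adjusted p = 0.043) and Il17rb (adjusted p = 0.019). Whether these genes peak in the double-positive class thus depended on the processing.

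The Icos level was not the same in all hashtags. In experiment 1, double-positive cells were at 1278, 2182 and 860 CPM under the hashtags A0307, A0308 and A0309, and Il1rl1-only cells at 704, 728 and 860 CPM. Under the third hashtag the levels of both classes were equal. For Gata3 the double-positive cells were at 1433, 1518 and 2002 CPM and the Il1rl1-only cells at 1365, 1342 and 1289 CPM, higher under each hashtag.

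The Il18r1-only cells were then divided by Pdcd1 and Il17rb, which separate uncommitted ILCPs from early and late ILC2-committed precursors in the marrow; the division was chosen after seeing the data. The largest part, 56 of 141 and 136 of 351 WT cells, had neither gene at 1 or more and has no place in that order. In it Icos was at 422 and 456, Gata3 at 768 and 568, Zbtb16 at 587 and 430, Tcf7 at 1256 and 1025, and Il2ra at 16.1 and 121 CPM. Icos in the other WT cells was at 176 and 529 CPM in cells with Pdcd1 only, 1249.7 and 1354 CPM with both, 1525 and 1778 CPM with Il17rb only, and then at 1491 and 1539.7 CPM in double-positive and 760.5 and 656 CPM in Il1rl1-only cells. The level of Icos in double-positive cells was hence also present in Il18r1-only cells with Il17rb and without Pdcd1, from which double-positive cells differed by −0.08 (edgeR, adjusted p = 0.847). Gata3 took the values 999, 1283, 1154, 1633 and 1334 CPM in experiment 1 and 727, 934, 969, 1222 and 1029 CPM in experiment 2 along the same order, with the highest value in double-positive cells both times. Il17rb was used for this division and is not compared across it.

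Zbtb16 and Tcf7 were highest in the cells with Pdcd1 only, and Il2ra in the Il1rl1-only cells. Zbtb16 took the values 965, 551, 120, 82.2 and 38.6 CPM in experiment 1 and 855, 782, 214, 33.4 and 30.4 CPM in experiment 2. Tcf7 went from 1312 over 956 and 452 to 93.1 and 44.5 CPM, and in experiment 2 from 2278 over 1335 and 444 to 41.4 and 43.0 CPM. Il2ra was at 15.7 and 4.41 CPM in the cells with Pdcd1 only, 3.73 and 8.79 CPM with both, 62.0 and 78.9 CPM with Il17rb only, 225 and 376 CPM in double-positive and 559.8 and 603 CPM in Il1rl1-only cells. Against the Il17rb-only cells among the Il18r1-only class (33 and 105 WT cells), edgeR called no gene of 17988 in double-positive cells (1912 at an unadjusted p under 0.05), with differences of −2.76 for Tcf7, −1.57 for Zbtb16, 2.11 for Il2ra and 0.46 for Gata3.

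**Figure D4:**
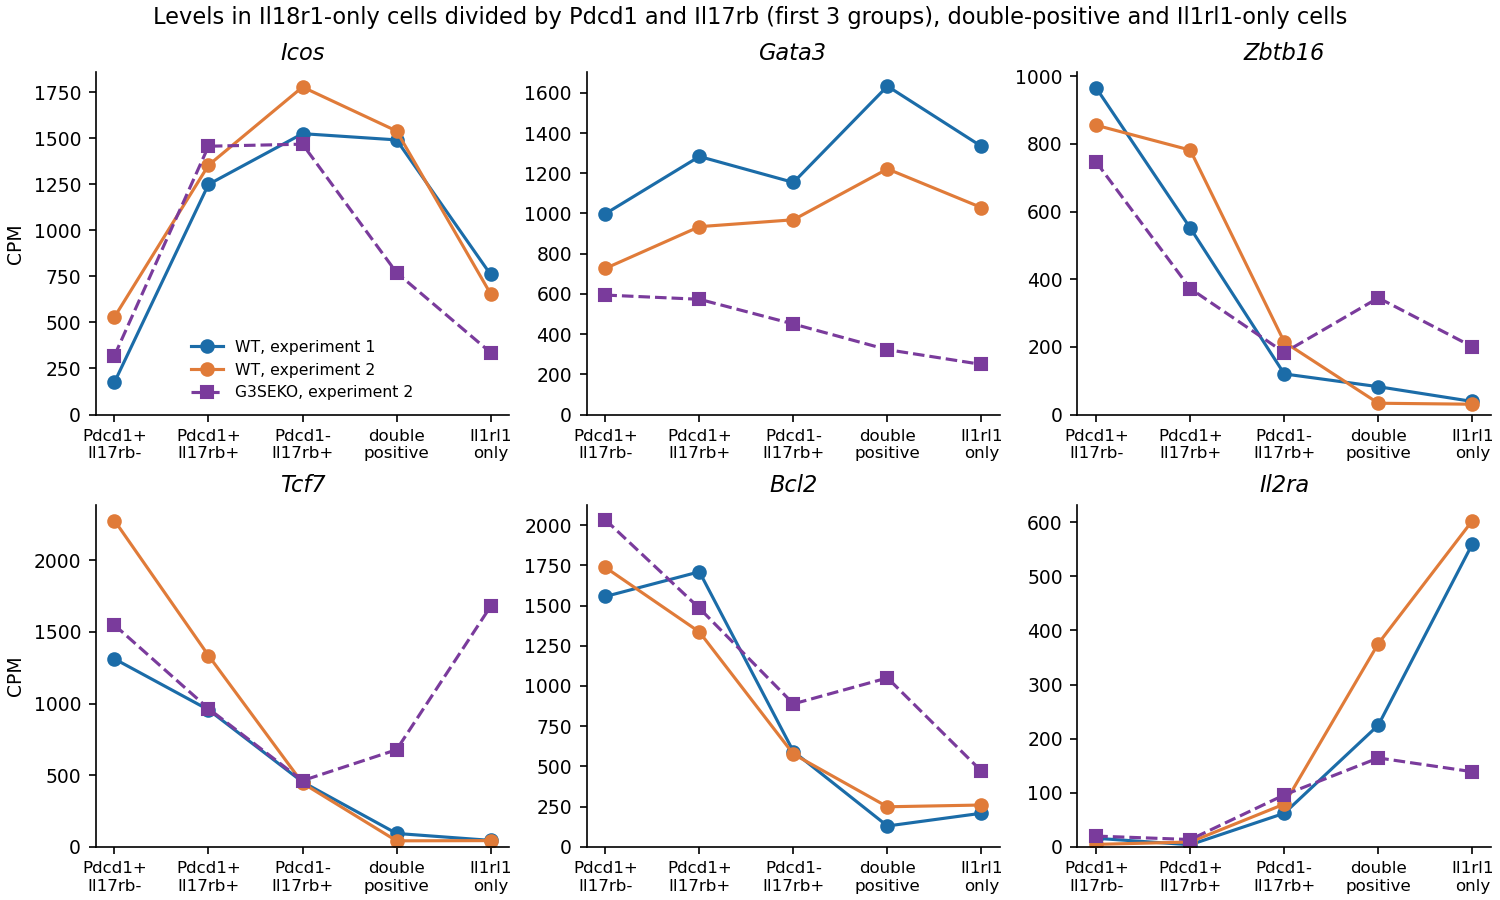
Levels (CPM, linear axes from 0) of 6 genes in Il18r1-only cells divided by Pdcd1 and Il17rb, in double-positive and in Il1rl1-only cells, with a line for WT cells of each experiment and a dashed line for G3SEKO cells of experiment 2, 1 sum of reads per point and no error bars; cells with neither gene are not drawn. In WT cells Zbtb16, Tcf7 and Bcl2 are lowest in the double-positive and Il1rl1-only classes, Il2ra is highest there, and Gata3 is highest in double-positive cells (1633 and 1222 CPM) but not in G3SEKO cells (323 CPM).

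Most genes around both receptors were not called. Of the 18 other IL-1 receptor family and signal chain genes, 1 was called higher and 1 lower against Il18r1-only cells, with a median of 0.17. Il1r1, the IL-1 receptor, was at 0.892 and 4.04 CPM in double-positive and 35.6 and 88.9 CPM in Il18r1-only cells (−4.76 ± 0.54, adjusted p = 0.048; 0.096 without the other-lineage cells), and Nfkb1, a subunit of NF-κB, was at 388 and 534 against 166 and 262 CPM (1.21 ± 0.12, adjusted p = 0.045; 0.112 without them). Il18rap, the signalling chain of the IL-18 receptor, was at 118 and 85.6 CPM in double-positive, 107 and 122 CPM in Il18r1-only and 68.2 and 65.7 CPM in Il1rl1-only cells. Il1rap, the chain that ST2 needs for signalling, was at 9.16 and 8.82, 8.07 and 4.89, and 14.3 and 19.0 CPM in the same order. Neither chain was called.

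Of 18 genes of the common γ chain receptors and their signals, 2 were called higher (Il2ra and Cish) and 1 lower (Bcl2) against Il18r1-only cells, with a median of 0.26. Bcl2, which keeps lymphocytes alive, was at 129 and 249 CPM in double-positive, 1197 and 1209 CPM in Il18r1-only and 209 and 259.6 CPM in Il1rl1-only cells (−2.66 ± 0.24 against Il18r1-only, adjusted p = 0.038; 0.060 without the other-lineage cells), so that it was below both classes in each experiment. Cish, a target of STAT5, was at 109 and 159 against 21.3 and 47.2 CPM (2.14 ± 0.20, adjusted p = 0.042; 0.072 without them). Il7r, whose product CD127 was part of the sort, was at 2033 and 2245 CPM and differed by 0.14 and 0.11 from the other classes.

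No immediate early or cycle gene was called. The 12 tested immediate early genes had a median log2 difference of 0.91 from Il18r1-only and −0.87 from Il1rl1-only cells. Junb was at 179 and 639.6 CPM in double-positive, 87.0 and 197 CPM in Il18r1-only and 448 and 946 CPM in Il1rl1-only cells and was thus in the same order in each experiment. Of the 12 genes, 10 were below the Il1rl1-only level in both experiments and 0 above it in both, against 29.3% and 24.7% of all genes tested. The 15 S and G2/M genes had a median of −0.9995 against Il18r1-only cells with no call, where Mki67 had already limited the cells. Among markers of other lineages, Eomes, Nkg7, Cxcr5, Il1r1 and Trbc1 were called lower than in Il18r1-only cells, and the B cell, mast cell, myeloid, erythroid and progenitor lists held no called gene in either comparison.

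The double-positive cells were not uniform. In WT cells, 37 of 58 (63.8%) and 93 of 183 (50.8%) had none of Zbtb16, Pdcd1 and Il2ra at 1 or more. Il2ra without Zbtb16 or Pdcd1 was found in 24.1% and 41.5%, and Zbtb16 or Pdcd1 in 12.1% and 7.65%. Only 5 cells in each experiment (8.62% and 2.73%) joined Il2ra with Zbtb16 or Pdcd1. Most double-positive cells were thus below the limit for both ILCP markers at this depth, and fewer than 1 in 2 reached it for Il2ra.

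Icos and Gata3 reached 1 together in 74.1% (43 of 58) and 69.4% (127 of 183) of WT double-positive cells. In Il18r1-only cells the share was 43.3% and 38.2% and in Il1rl1-only cells 61.9% and 38.0%. Zbtb16 was found in 10.3% and 5.46% of double-positive cells, against 53.2% and 42.5% of Il18r1-only and 5.56% and 4.05% of Il1rl1-only cells. Il2ra was found in 32.8% and 44.3%, against 3.55% and 9.40% and against 59.7% and 55.1%. After thinning, the double-positive shares of Il2ra were 31.0% and 38.8%, and those of Zbtb16 10.3% and 4.92%.

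Double-positive cells of G3SEKO mice carried the receptor pair on another background. Only the 36 cells of experiment 2 were enough to sum, so the values below come from 1 pool per genotype, with exact Poisson intervals for counting error and no test. Gata3 was at 323 CPM (298 to 348) in G3SEKO and 1222 CPM (1199 to 1244) in WT double-positive cells, a log2 difference of −1.92. In Il18r1-only cells the difference of the genotypes in Gata3 was −0.83 in experiment 2 and −0.45 in experiment 1. Among G3SEKO cells of experiment 2, Gata3 took the values 594, 573 and 450 CPM in the Il18r1-only cells with Pdcd1 only, both genes and Il17rb only, and then 323 CPM in double-positive and 249 CPM in the 13 Il1rl1-only cells. It was at 260 CPM in the 314 of 779 G3SEKO Il18r1-only cells with neither gene. The double-positive value was below those of 3 of these 5 other sets of cells, whereas in WT cells it was above all 5 in both experiments.

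Most ILCP genes were higher in G3SEKO than in WT double-positive cells. Of 13 ILCP genes with at least 20 CPM summed over both genotypes, 7 were more than 1 log2 unit higher and 1 lower. Over 9310 genes the shares were 16.1% and 16.9%, and the median of the ILCP genes was 1.06. The list holds Ikzf3 and Pecam1, which the paper named from these same libraries as prolonged in G3SEKO cells, so the count is a description. Tcf7 was at 678 against 41.4 CPM, Zbtb16 at 345 against 33.4 CPM, Pdcd1 at 125 against 21.4 CPM and Tox at 215 against 103 CPM. Bcl2 was at 1050.2 against 249 CPM, and Bcl11b at 677 against 306 CPM. The level of Zbtb16 in G3SEKO double-positive cells was close to that of G3SEKO Il18r1-only cells, 378 CPM.

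Most mature ILC2 genes were lower. Of 22 such genes within the same CPM limit, 15 were more than 1 log2 unit lower and 2 higher, with a median of −1.56. Over all genes the shares were 16.9% and 16.1%. The paper had named Slc7a8, Cnot6l, Ptpn13, Inpp4b and Zfp36l1 of this list from these same libraries for differing between the genotypes. The count is thus partly fixed by that choice. Il2ra was at 164 against 376 CPM, Cnot6l at 531 against 1296 CPM and Inpp4b at 117 against 604 CPM. Ptpn13 had 1 read in the 36 cells (0.495 CPM; 0.0125 to 2.76) against 127 CPM. Ccr9 (872 against 675 CPM), Cish (154 against 159 CPM) and Il17rb (697 against 788 CPM) were near their WT levels, while Icos was at 771 against 1539.7 CPM. By cell, 13 of 36 G3SEKO members (36.1%) had Zbtb16 or Pdcd1, 8 of 36 (22.2%) had Il2ra, and 14 of 36 (38.9%) had both Icos and Gata3.

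Other measures moved with the genotype in these cells. Il1rl1 itself was at 544 against 1337 CPM and Il18r1 at 1060 against 695 CPM. The LTi and ILC3 markers summed to 410 CPM in G3SEKO and 146 CPM in WT double-positive cells, and the NK and ILC1 markers to 733 and 105 CPM. The T cell markers summed to 2148 against 1065 CPM, the mast cell and basophil markers to 330 against 158 CPM and the myeloid markers to 115 against 31.3 CPM. In both genotypes 7 of the 9 mast cell and basophil markers were at 0 reads, and the sum came from Cpa3 and Kit. Nearly all of the myeloid sums came from Ctss (114 against 30.5 CPM). These sums thus do not show more mast or myeloid cells. Of 8 S and G2/M genes with at least 20 CPM summed over both genotypes, 4 were more than 1 log2 unit higher in G3SEKO cells and 1 lower (median 1.20). Over all genes the shares were 16.1% and 16.9%. Top2a, a topoisomerase of dividing cells, was at 72.2 against 8.39 CPM and met the CPM limit only through the G3SEKO cells. The count thus partly follows from that limit. Cxcr5 was at 154 against 1.06 CPM, and Tbx21 at 23.7 CPM against 0. The 26 doublet columns, of which 21 leaned to the G3SEKO hashtag, were at 537 CPM for Gata3, 753 CPM for Icos, 261 CPM for Zbtb16 and 271 CPM for Il2ra. The part of other lineages, of cycling cells and of unseen doublets in the genotype differences was not tested. The 2 G3SEKO cells of experiment 1 had Gata3 at 211, Icos at 176 and Tcf7 at 1943 CPM, and 1 of them carried Eomes or Klrd1.

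**Figure D5:**
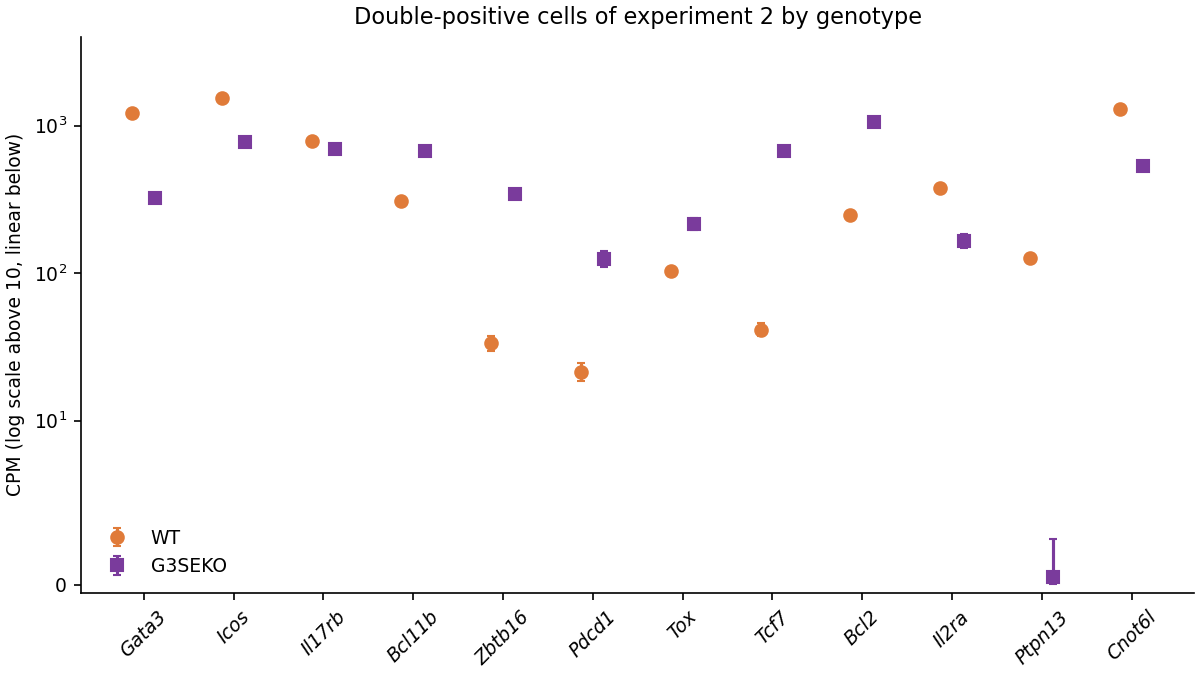
Levels (CPM, log axis above 10 and linear axis below) of 12 genes in double-positive cells of WT (183 cells, circles) and G3SEKO mice (36 cells, squares) in experiment 2, with exact 95% Poisson intervals that cover counting error only and are mostly smaller than the symbols. Tcf7, Zbtb16 and Bcl2 are higher in G3SEKO cells (Tcf7 678 against 41.4 CPM), and Gata3, Icos, Il2ra and Ptpn13 are lower (Gata3 323 against 1222 CPM).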

How the data were processed

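Single-cell libraries of bone marrow αLPs of WT and G3SEKO mice (2 experiments) were analysed. The authors aligned reads with Bowtie2 to GRCm38 (mm10) and deposited raw read counts per gene and cell, not normalized and with no collapse of reads from one molecule, with a hashtag call in each column name; the deposited hashtag counts were read in the same form. Columns with a hashtag, at least 83012 (experiment 1) or 6733 (experiment 2) reads and at most 10% mitochondrial reads were kept, and 102 columns named doublet or without a hashtag were left out of the comparisons. Doublets were not called from expression. Some genes of the lists are not reported here, and they stay in the sums and counts of those lists.

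The members, gene lists and tests were chosen with earlier results of these data known. Reads were summed per class, genotype and experiment; sums of WT double-positive cells held 33629223 and 9413001 reads in experiments 1 and 2, with medians of 481592 and 38179 reads and 6117.5 and 2267 genes per cell. The 6 WT sums were tested with edgeR 4.0.16 in R 4.3.3 (quasi-likelihood, TMM, filterByExpr, experiment as the replicate block, Benjamini-Hochberg adjustment), without the 5 genes of the rule. Both experiments hold all classes from the same animals, and deviations of sums from the same experiment correlated by 0.173, 0.225 and 0.306 over 20565 genes, so the pairing was kept. Each sum comes from a pool, and the block takes out the difference between the 2 pools. The p-values thus measure how far the differences between classes varied between the 2 experiments, with classes that are cells of the same pool. Named genes are all list members and the 8 largest called differences in each direction with the same sign in both experiments. The genotypes were not tested, because 1 of the 2 G3SEKO sums holds 2 cells. On simulated counts with 200 genes changed by 2 log2 units, the test of double-positive against Il18r1-only cells recovered 39% of them, with 3 wrong calls. The simulated sums were drawn independently, unlike the real ones. For smaller differences, such as that of Gata3, the share recovered was not determined. Alternatives were DESeq2 1.42.0, limma 3.58.1 on mean CPM per cell with a pseudocount of 5, no filter, no block, thinned cells, other limits, hashtag reads for the genotype, and each experiment alone.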

Additional observations from a re-analysis of the deposited data

Results flagged for a closer look

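In 7 list genes the difference of double-positive from Il18r1-only cells had opposite signs in the genotypes and passed a minimum size in each of them. It was positive in both WT experiments and negative in both G3SEKO ones. Gata3 and Icos had the same signs with differences below that size in G3SEKO cells of experiment 2, and are not counted. The reverse order was allowed and met by no list gene. The share of all genes with this pattern was not determined. The difference between the genotypes was not tested, and the G3SEKO side of experiment 1 rests on 2 cells. In G3SEKO cells of experiment 2 the log2 differences were −1.15 for Cd200r1, an inhibitory receptor of ILC2s, −1.30 for Hpgds, the prostaglandin D synthase, −0.87 for Ier2, −3.22 for Il15ra, −3.54 for Ptpn13, −1.45 for Slc7a8 and −2.16 for Socs2, a feedback inhibitor of STAT5. In WT cells the same differences were 3.29 and 1.55 for Cd200r1, 2.59 and 1.42 for Hpgds, 0.68 and 0.70 for Ier2, 1.34 and 0.61 for Il15ra, 1.97 and 2.31 for Ptpn13, 2.38 and 2.60 for Slc7a8, and 2.22 and 1.39 for Socs2. The minimum of reads for this choice left out the G3SEKO double-positive sums. In that sum of experiment 2, Ptpn13 and Il15ra had 1 read each, Slc7a8 had 2, Hpgds 5 and Socs2 8 reads. Several of these genes were close to 0 in both G3SEKO classes, such as Slc7a8 at 0.989 CPM in double-positive and 3.36 CPM in Il18r1-only cells of experiment 2.

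Columns outside the comparisons held the receptor pair as well. Of the 77 columns named doublet in experiment 2, 33.8% were double-positive, above the 3.63% of WT and 3.24% of G3SEKO cells.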

How the results depend on the processing

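The number of called genes depended on the setting more than the directions did. Of 35 named genes called between double-positive and Il18r1-only cells, none was called under every setting and 35 kept their sign wherever they had a value; Pdcd1 had none against cells chosen for lacking it, and Hk3 none with thinned cells. The counts higher and lower (64 and 50) became 866 and 1203 with DESeq2, 184 and 159 with thinned cells, 7 and 9 without the cells with the most reads, 0 and 1 with limma on mean CPM, 0 and 2 at a receptor limit of 1.5, 4 and 4 without cells with markers of other lineages and 0 and 0 against Il18r1-only cells with Il17rb and without Pdcd1; at least 1 Id2 read gave 42 higher. Without the replicate block, which pairs sums of one experiment, they were 8 and 16. Against Il1rl1-only cells (0 and 0), DESeq2 gave 282 and 320, thinned cells 11 and 5, and a limit of 0.5 gave 3 higher. Against the mean of both classes (0 and 0), DESeq2 gave 472 and 655, thinned cells 24 and 8, and leaving out the cells with the most reads gave 1 lower; among the thinned calls were Icos (adjusted p = 0.043, edgeR) and Il17rb (0.019). Between Il1rl1-only and Il18r1-only cells the count in both directions together (340) was 1799 with DESeq2, 685 with thinned cells, 225 with limma, 169 without the cells with the most reads, 128 without other-lineage cells, 93 without the replicate block, 58 at a limit of 1.5 and 16 against the Il17rb-only cells. The sign of Icos turned to −0.0805 against Il17rb-only cells, that of Ets1 to −0.00333 there and to −0.0715 with thinned cells, and that of Bcl11b to 0.22 without the cells with the most reads; none of the 4 was called, and the cause was not tested. The share of double-positive cells in WT was 12.2% and 6.20% at a limit of 0.5, 4.26% and 2.08% at 1.5, and 6.05% thinned in experiment 1; in G3SEKO it was 5.76% and 1.62% at both limits and 4.87% by hashtag reads in experiment 2, where the 21 added double-positive cells were columns named doublet, and 0% at 1.5 and thinned in experiment 1. With 1 experiment left out no test could be made, so counts of calls have no value there. The planned tests of the genotypes were not run because the G3SEKO sum of experiment 1 holds 2 cells. Depth limits experiment 2, where 1 read can decide whether a shallow cell passes a limit.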

Other observations

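Cpa3, a protease gene of mast cells that early lymphoid progenitors also carry, was at 168 and 120.5 CPM in double-positive, 124 and 69.6 CPM in Il18r1-only and 104 and 52.9 CPM in Il1rl1-only cells, and was not called. Kit, the stem cell factor receptor, was at 23.1 and 37.1 CPM in double-positive and 219.9 and 187 CPM in Il18r1-only cells (log2 difference −2.69, edgeR adjusted p = 0.051). Ly6a, which encodes Sca-1, was at 603 and 818 CPM, between 70.4 and 241 CPM in Il18r1-only and 917 and 1371 CPM in Il1rl1-only cells (2.48 from Il18r1-only cells, adjusted p = 0.068). In WT double-positive and Il1rl1-only cells, the mast cell and basophil markers other than Cpa3 and Kit were at 0 reads or close to it. In WT Il18r1-only cells of experiment 1, Gata2, Fcer1a, Mcpt8 and Ms4a2 held 544, 496, 300 and 268 reads, at 5.25 CPM or less.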
